A study of Saccharomyces cerevisiae with 9 samples.

Results

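The 40 genes described here belong to the meiosis and sporulation programme of Saccharomyces cerevisiae. They were chosen by name, and their probe sets are those that the platform annotation of the YG-S98 array assigns to exactly 1 of them. All 40 genes had a probe set, out of 5656 genes named by a probe set of their own. They account for 42 of 9275 tested probe sets, because DMC1 and MEI4 each have 2.

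The study set commercial dry active yeast beside a laboratory strain that was dried under controlled conditions. Total RNA was hybridised to 9 one-colour arrays, 3 for each of 3 groups. Control BY4743 was grown on rich glucose medium (30 °C, absorbance 0.8) and sampled after transfer to that medium diluted 1:20. Dried BY4743 had the same growth temperature, absorbance and 1:20 dilution of the medium. It was then dried in dishes over 42 h and was sampled after a further 72 h in air of 20% relative humidity. The third group was commercial dry active yeast, whose strain, growth and drying the sources used here do not give. BY4743, the strain of both the control and the dried group, is a diploid of the S288C background that lacks a functional URA3 gene. Nothing in the labels ties the replicate arrays to separate cultures, so p-values measure only the spread between arrays, which may be technical.

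Sporulation is the way a diploid yeast cell starved of nitrogen and of fermentable sugar turns into an ascus with haploid spores. It runs as a cascade of transcription. Ime1 joins Ume6 on the early genes, whose products copy, pair and recombine the chromosomes. Ndt80 then switches on the middle genes for the meiotic divisions and the prospore membrane, and late genes build the spore wall. In growing cells nearly all of these genes are kept off by repressors that include Ume6 itself.

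Signals are given in normalized array units, which have no meaning as copies per cell and cannot be compared between probe sets. Background on an array was taken as the 95th percentile of the 28 control features without a target in yeast RNA. It ran from 32.2 to 59.5 over the 9 arrays, with a median of 46.0. On the control arrays it was 46.5, 32.2 and 46.0, on the dried arrays 46.7, 59.5 and 47.0, and on the commercial arrays 44.2, 33.0 and 35.2. These are levels after normalization. On the deposited values background was 44.6, 28.2 and 39.8 on control and 41.3, 56.3 and 43.4 on dried arrays. There it was 57.3, 42.6 and 47.4 on commercial arrays, so which group has the lower background depends on the normalization. A probe set is called above background in a group only where all 3 arrays of that group exceeded it. Changes are log2 differences of group means from limma's moderated test on all 9275 probe sets, with p-values adjusted by the Benjamini-Hochberg method and a threshold of 0.05, and errors given with them are standard errors. Where the dimmer group lay at background on all 3 arrays, the change is given as a lower bound, and where both groups lay at background no fold change is given.

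BY4743 carries deletions at the marker loci URA3, LEU2 and HIS3. On the URA3 gene probe set the signal was at most 3.22 on every BY4743 array and was 358, 404 and 332 on the commercial arrays. LEU2 and HIS3 did not separate the groups in that way. LEU2 had means of 84.5 in control, above background on all 3 arrays, 29.7 in dried and 382 in commercial yeast, and HIS3 had 1026, 129 and 365. Of 19 genes that are active in haploid cells and repressed in diploids, 8 lay above background in control, 6 in dried and 8 in commercial yeast, and 8, 9 and 5 lay at background on all 3 arrays. Their mean signals ran from 7.54 to 290 in control, 2.06 to 213 in dried and 12.6 to 359 in commercial yeast, and HO, the mating-type switching endonuclease, was at background in all 3 groups. RNA from the 3′ end of ACT1 exceeded that from its 5′ end by -0.40 ± 0.27 on the log2 scale in control, 1.40 ± 0.17 in dried and 0.42 ± 0.10 in commercial yeast (SD, n = 3). The exact two-sided permutation p was 0.10 for each pair of groups, the smallest that 3 against 3 arrays can give. For SPT15 the same excess was 1.31 ± 0.09 in control, 1.63 ± 0.11 in dried and 1.99 ± 0.11 in commercial yeast, and for SRB4 it was 1.205 ± 0.27, 1.48 ± 0.09 and 2.62 ± 0.40. All 3 genes were thus higher in dried than in control cells, but from dried to commercial yeast ACT1 was lower while SPT15 and SRB4 were higher. The exact permutation p was again 0.10 for these pairs of groups, except for SRB4 in dried against control cells, where it was 0.20. The part of RNA quality in the changes below was not tested.

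In control cells most of the programme gave no signal above background. Of the 42 probe sets, 8 (19.0%) were above background on all control arrays, against 74.1% of all tested probe sets. In dried cells the number was 16 (38.1%, against 71.4%), and in commercial yeast 18 (42.9%, against 75.1%). The regulators were nearly all measured, 4 of 5 in control and 5 of 5 in each dry yeast. Among 22 early probe sets the numbers were 1, 7 and 6 in control, dried and commercial yeast. Among 12 middle probe sets they were 2, 3 and 6, and among 3 late probe sets 1 in each group. IME1, IME2, UME6, MUM2, SPO1, AMA1 and SPS100 were above background on all 9 arrays. These counts depend on where background is set, and with the highest of the 28 controls in place of the 95th percentile, a choice made after seeing the data, they were 3, 13 and 12.

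**Figure D1:**
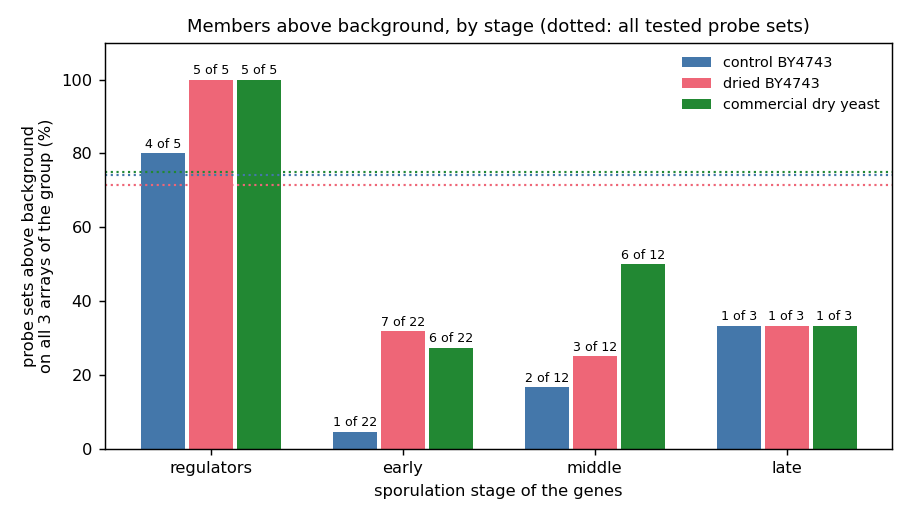
Share of member probe sets above background on all 3 arrays of a group (vertical axis, percent) by sporulation stage (horizontal axis), with the count over each bar and dotted lines for all tested probe sets. The regulators stand above the dotted lines, 4 or 5 of 5, and the early, middle and late genes stand below them in all 3 groups.

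At the other end, 15 genes (16 probe sets) were at background on every one of the 9 arrays. They were SPO11, HOP1, HOP2, REC114, MEI4, MER1, MND1 and SPO16 of the early stage, SPO74, SPS2, SPS4, SMK1, SSP1 and SSP2 of the middle stage, and DIT2 of the late stage. For these genes the arrays give an upper limit and no level. DIT2, a cytochrome P450 that makes the dityrosine of the outer spore wall, had signals of 1.00 to 2.43. SMK1, the MAP kinase of spore wall assembly, had signals of 6.17 to 27.6.

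**Figure D2:**
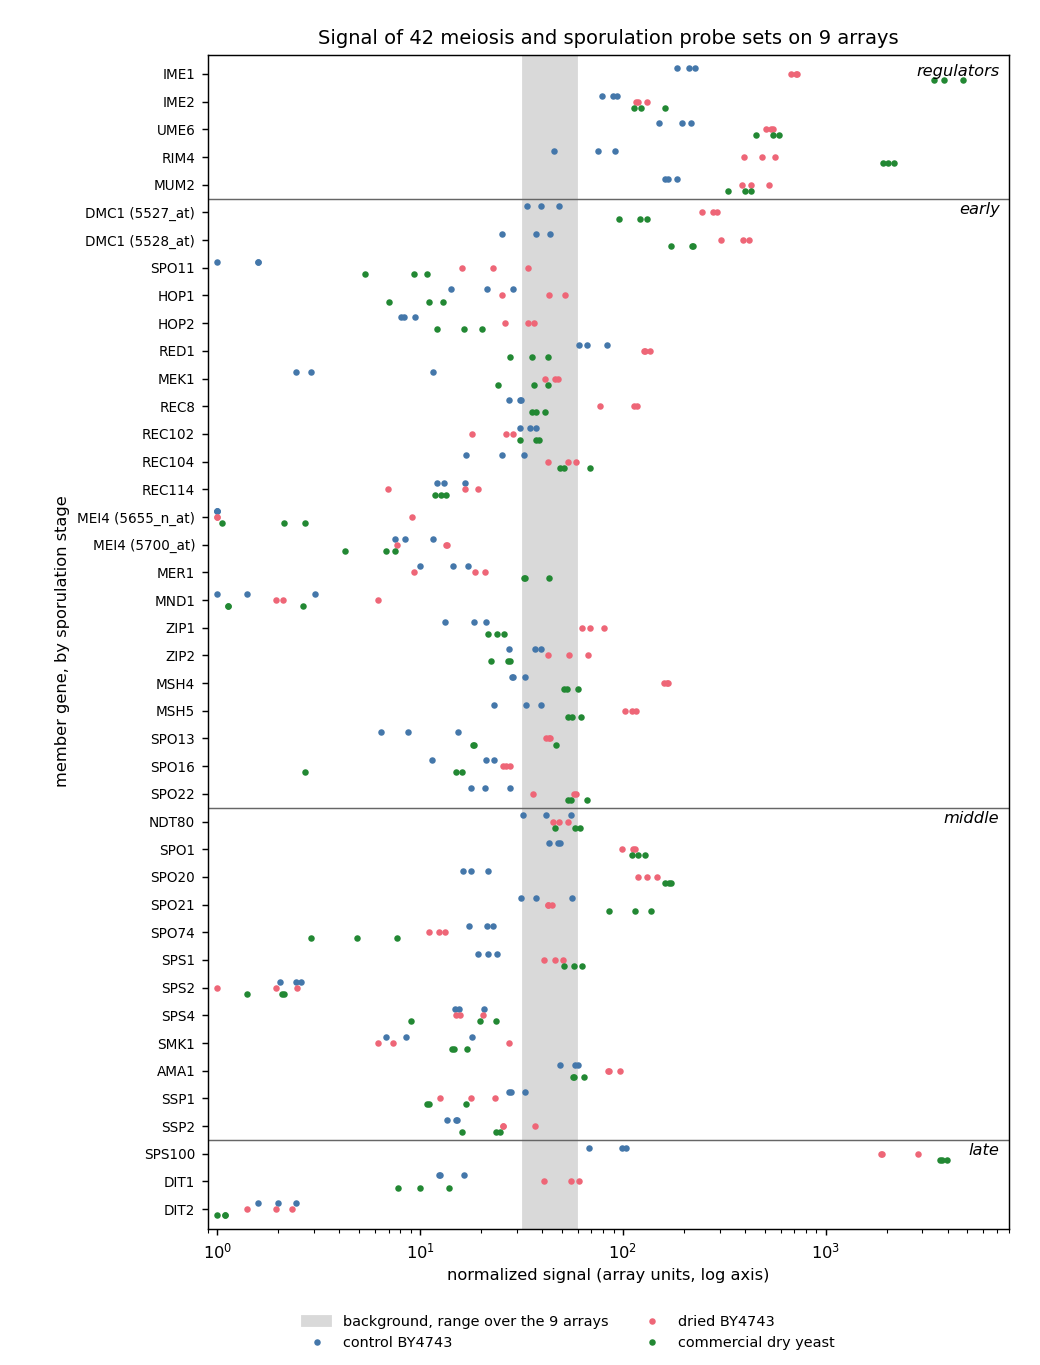
Normalized signal of each of the 42 member probe sets (rows, grouped by stage) on each of the 9 arrays (horizontal axis, array units, log scale), one point per array, with the range of array backgrounds in grey. IME1, UME6, RIM4, MUM2 and SPS100 lie to the right of the grey band in both dry yeasts, and the 16 probe sets at background on all 9 arrays lie in or to the left of it.

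Drying of BY4743 was followed by higher signals of all 5 regulators, of 6 early genes, of 3 middle genes and of the late gene SPS100. In dried against control cells, 16 member probe sets of 15 genes rose with a dried signal above background on all 3 arrays, 38.1% of the 42, and none fell by that rule. Over all tested probe sets the same rule called 32.4% higher and 29.3% lower. The share of members that rose was thus near the background, and the share that fell was under it. By stage, 7 of 22 early probe sets (31.8%) and 3 of 12 middle ones (25%) rose, which is no more than over all tested probe sets. With 25 of the 42 probe sets at background on all control arrays, a fall of those genes could not have been measured. By the adjusted p alone, 26 member probe sets were higher (61.9%, against 36.2%) and 2 were lower (4.76%, against 33%). The median change of the 42 was 1.08 against 0.04 for all tested probe sets, but with an offset of 50 added to every signal, which damps differences between dim values, it was 0.43. In these bulk samples a change in the number of cells that express a gene and a change in the RNA per cell cannot be told apart.

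Among the regulators, IME1, the transcription factor that starts the programme, had signals of 212, 184 and 227 in control cells and 725, 714 and 678 in dried cells. The groups did not overlap, and IME1 rose by 1.77 ± 0.13 on the log2 scale (limma, adjusted p = 7.92e-06). UME6, the DNA-binding protein through which Ime1 acts, went from 217, 151 and 196 to 549, 540 and 508. Its lowest dried array was above its highest control array, and the rise was 1.52 ± 0.15 (limma, adjusted p = 4.4e-05). RIM4, an RNA-binding protein that holds back translation of meiotic messages, had 45.8, 75.6 and 91.3 in control cells, with 2 of 3 arrays above background. In dried cells RIM4 had 483, 396 and 560, a rise of 2.80 ± 0.25 (limma, adjusted p = 2.09e-05). MUM2 encodes a subunit of the complex that methylates adenosine in meiotic messenger RNA, and its signals of 162, 167 and 184 became 527, 430 and 387, a rise of 1.38 ± 0.14 (limma, adjusted p = 5.52e-05).

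IME2, the kinase that is itself an early target of Ime1, moved least of the 5. Its signals were 89.2, 94.0 and 79.3 in control and 116, 132 and 119 in dried cells. The groups did not overlap, and the rise was 0.48 ± 0.14 (limma, adjusted p = 0.0163). The call was lost without control replicate 3, at 0.41 (adjusted p = 0.0569), without dried replicate 2, at 0.42 (adjusted p = 0.0549), and under scaling by the spike-in controls, at 0.25. That scaling moved the median of all tested probe sets in this comparison to -0.29.

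Early genes differed among themselves. DMC1, the recombinase that carries out strand exchange in meiosis, was at 48.6, 33.8 and 39.5 on its first probe set in control cells and at 245, 292 and 278 in dried cells, a rise of 2.75 ± 0.17 (limma, adjusted p = 2.36e-06). Its second probe set went from 25.5, 37.4 and 43.7 to 419, 303 and 392, a rise of 3.41 ± 0.22 (limma, adjusted p = 3.4e-06). Both probe sets therefore separated the groups fully and in the same direction, from control signals at the background level. Because 2 of 3 control arrays on the first probe set and 1 of 3 on the second were above background, the size of these rises rests on control signals that are barely measured.

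MSH4 and MSH5 form the pair of MutS-like proteins that stabilises crossover intermediates. MSH4 had 28.7, 32.9 and 28.2 in control cells and 164, 159 and 167 in dried cells, a rise of 2.45 ± 0.10 (limma, adjusted p = 2.16e-07). MSH5 had 33.2, 39.5 and 23.1 in control cells and 103, 116 and 111.5 in dried cells, a rise of 1.82 ± 0.19 (limma, adjusted p = 4.82e-05). Of each gene, 1 control array exceeded background, control replicate 2 with its low background of 32.2. Both genes were above background on all dried arrays, without overlap with the control arrays.

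Among genes of the chromosome axis, RED1, an axial element protein, was measured in both groups. It had 83.1, 60.9 and 66.8 in control cells and 128, 135 and 129 in dried cells. The rise was 0.91 ± 0.17 (limma, adjusted p = 0.00194), and it did not pass under scaling by the spike-in controls, at 0.68. REC8, the meiotic cohesin subunit, was at background on all control arrays, with 27.6, 31.3 and 31.6, and had 118, 76.9 and 113 in dried cells. That made REC8 at least 2.46-fold higher (limma, adjusted p = 3.27e-05). ZIP1, the central component of the synaptonemal complex, went from 21.1, 13.3 and 18.5, all at background, to 69.2, 80.9 and 62.5, and was at least 1.72-fold higher (limma, adjusted p = 2.26e-05).

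The member genes for meiotic break formation, and several other early members given here, lay at or near background. SPO11, the enzyme that makes the meiotic double-strand breaks, had 1.00, 1.58 and 1.59 in control cells and 34.2, 16.0 and 23.0 in dried cells. Those groups did not overlap and the test was passed (limma, adjusted p = 1.95e-05), but every one of the 6 values was under its array's background, so no fold change is given. HOP2, a partner of Dmc1 with Mnd1, also passed with both groups at background. REC104, MEK1, ZIP2, SPO13 and SPO22 passed with dried signals above background on 1, 1, 2, 0 and 1 of 3 arrays. REC102, whose product acts with that of REC104 in break formation, was lower in the fit, with 31.0, 34.8 and 37.1 in control and 18.0, 28.7 and 26.4 in dried cells, and only 1 of these 6 values exceeded its background.

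Of the middle genes, NDT80, the transcription factor that commits cells to the meiotic divisions, did not pass the test. It had 32.0, 55.7 and 41.9 in control cells, with 1 of 3 arrays above background, and 48.6, 45.5 and 53.8 in dried cells, with 2 of 3. The groups overlapped, and the change was 0.22 with a 95% confidence interval from -0.25 to 0.70 (limma, adjusted p = 0.36). SPO20, a SNARE protein of the prospore membrane, showed the clearest middle change. It was at background in control cells, with 17.9, 16.3 and 21.7, and had 119, 148 and 132 in dried cells, at least 3.23-fold higher (limma, adjusted p = 4.21e-07).

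SPO1, a protein with similarity to phospholipase B that is needed for spindle pole duplication in meiosis, had 49.2, 43.0 and 47.6 in control cells and 99.6, 114 and 112.2 in dried cells. Each control value was above its array's background, 46.5, 32.2 and 46.0, and the rise was 1.22 ± 0.10 (limma, adjusted p = 1.06e-05). AMA1, the meiotic activator of the anaphase-promoting complex, had 48.9, 60.3 and 58.4 in control and 96.8, 85.1 and 84.7 in dried cells. Its rise of 0.67 ± 0.11 (limma, adjusted p = 0.000795) did not pass under scaling by the spike-in controls, at 0.41. SPS1, a kinase of prospore membrane closure, was at 19.2, 21.6 and 24.0 in control and 46.4, 40.9 and 50.8 in dried cells, with 1 dried array above background. SPO21, a part of the meiotic outer plaque of the spindle pole, had 37.2, 31.6 and 56.0 against 42.7, 42.7 and 44.9, and its groups overlapped.

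SPS100, a late gene for a spore wall protein, had the largest member change with a measured signal in both groups. Its control signals were 67.9, 99.0 and 103, all above background, and its dried signals were 1867, 2848 and 1893. The rise was 4.61 ± 0.21 (limma, adjusted p = 4.61e-07). The reference annotation places the transcript SUT169 over SPS100, and what share of the signal it contributes was not tested. The late genes DIT1 and DIT2, neighbours in the genome act together in dityrosine synthesis. DIT1 went from 16.6, 12.4 and 12.6, all at background, to 61.0, 40.6 and 55.5, with 2 of 3 dried arrays above background (limma, adjusted p = 0.000195), and DIT2 stayed at background on all 6 arrays.

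**Figure D3:**
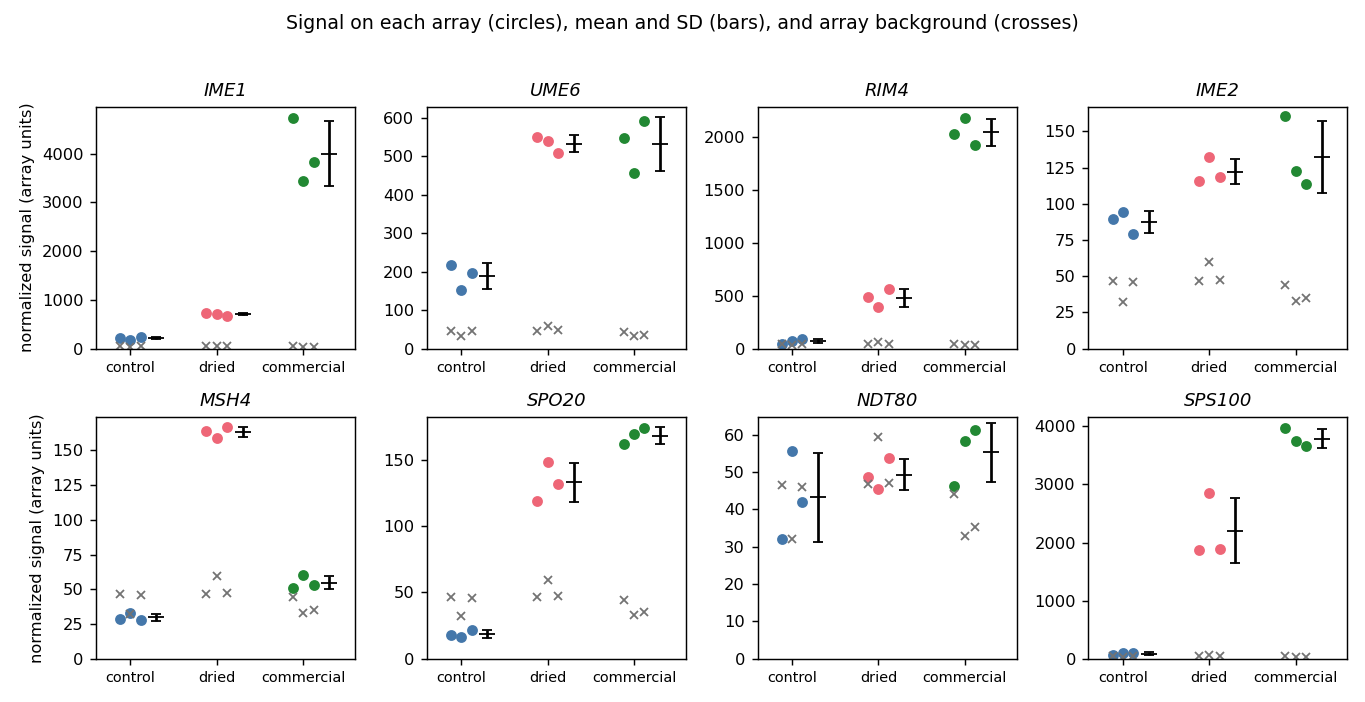
Normalized signal (vertical axes, array units, linear and different for each gene) of 8 members on each array of control, dried and commercial yeast, with array background as crosses and the group mean with its SD (n = 3) as bars. IME1, RIM4 and SPS100 step up from control to dried to commercial yeast, UME6 overlaps between the dry yeasts, MSH4 is highest in dried BY4743, and NDT80 stays near the crosses in all 3.

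Commercial yeast differed from dried BY4743 in 2 directions. IME1, RIM4 and 3 genes of spore formation were higher, and 6 early genes and the middle gene AMA1 were lower. By the rule that the brighter group be above background on all 3 arrays, 5 member probe sets were higher (11.9%, against 28.9% of all tested probe sets) and 8 probe sets of 7 genes were lower (19.0%, against 28.8%). Both shares were under those of all tested probe sets. Among the 22 early probe sets, 7 were lower by this rule (31.8%), near the share of all tested probe sets. The rule leaves out dim probe sets, and 16 of the 42 lay at background in both groups. Above background were 38.1% of the 42 in dried and 42.9% in commercial yeast, against 71.4% and 75.1% of all tested probe sets. The low shares are therefore not read as a result about these genes. By the adjusted p alone, 7 were higher (16.7%, against 33.1%) and 16 were lower (38.1%, against 33.5%). The median change of the 42 was -0.43 against 0.00 for all tested probe sets, and it turned to 0.14 on the deposited values and 0.16 after median centring of the arrays. No direction of the group as a whole is therefore given for this comparison.

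The 5 that were higher were IME1, RIM4, SPO20, SPO21 and SPS100. IME1 had 4737, 3437 and 3828 in commercial yeast against 678 to 725 in dried BY4743, a rise of 2.49 ± 0.13 (limma, adjusted p = 2.39e-06). RIM4 had 2030, 2181 and 1923 against 396 to 560, a rise of 2.11 ± 0.25 (limma, adjusted p = 0.000152). The other 3 regulators overlapped between the dry yeasts. UME6 had 548, 456 and 591 in commercial yeast, and its change of -0.01 had a 95% confidence interval from -0.36 to 0.35. IME2 had 161, 122 and 114 with a change of 0.10, and MUM2 had 429, 400 and 331 with a change of -0.21, and neither passed the test (limma, adjusted p = 0.549 and 0.235).

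Among the middle genes, SPO21 had 115, 138 and 85.1 in commercial yeast and lay at background on all dried BY4743 arrays, so it was at least 2.17-fold higher (limma, adjusted p = 0.00139). SPO20 had 162, 170 and 174, a difference of 0.34 ± 0.13 (limma, adjusted p = 0.0428). That call was lost without control replicate 1, dried replicate 1 or 3, or any commercial replicate, at 0.27 to 0.38. SPS100 had 3967, 3741 and 3658, above all dried BY4743 arrays, a rise of 0.81 ± 0.21 (limma, adjusted p = 0.00984). Scaling by the spike-in controls moved the median of all tested probe sets in this comparison to -1.10. On that scale IME1 was at 1.36 and passed, RIM4 at 0.73 and SPO21 at 0.38 did not pass, and SPO20 and SPS100 turned to -0.89 and -0.28.

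The 7 genes that were lower were DMC1, RED1, REC8, ZIP1, MSH4, MSH5 and AMA1. RED1 had 42.6, 35.8 and 27.7 in commercial yeast, with 1 of 3 arrays above background, and fell by 1.91 ± 0.17 (limma, adjusted p = 3.58e-05). MSH4 had 51.1, 60.1 and 53.2, all above background, and fell by 1.58 ± 0.10 (limma, adjusted p = 4.22e-06). DMC1 fell by 1.23 ± 0.17 on its first probe set, with 121, 95.7 and 132, and by 0.85 ± 0.22 on its second, with 173, 220 and 223 (limma, adjusted p = 0.000342 and 0.0101).

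ZIP1 was back at background in commercial yeast, with 21.6, 25.8 and 23.9, and was at least 1.90-fold lower than in dried BY4743 (limma, adjusted p = 0.000138). REC8 had 37.5, 35.7 and 41.5, with 2 of 3 arrays above background, and fell by 1.40 ± 0.17 (limma, adjusted p = 0.000159). MSH5 fell by 0.95 ± 0.19 to 62.0, 56.1 and 53.4, and AMA1 fell by 0.58 ± 0.11 to 56.5, 57.4 and 64.3 (limma, adjusted p = 0.00242 and 0.00201). After median centring of the arrays 7 of these 8 lower calls held, and AMA1, at -0.30, did not pass. DIT1 had 13.9, 9.94 and 7.74, all at background.

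**Figure D4:**
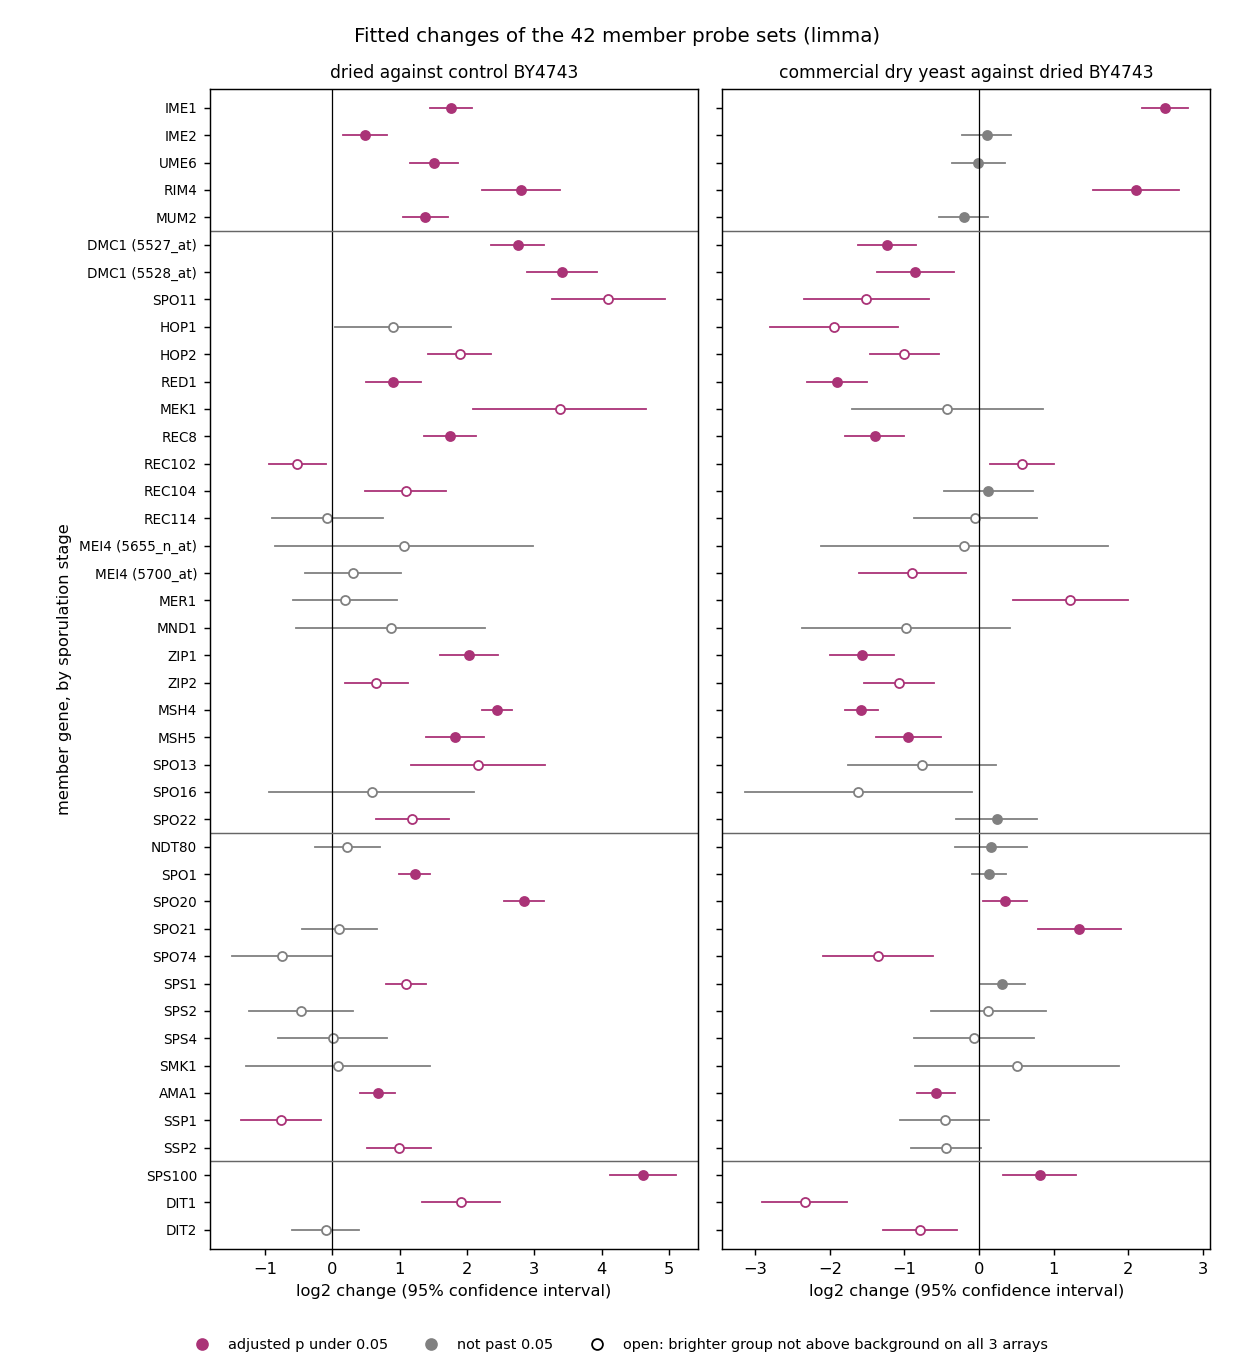
Log2 change (horizontal axes) of each member probe set with its 95% confidence interval, dried against control BY4743 on the left and commercial yeast against dried BY4743 on the right, grouped by stage. Filled purple points passed the test with the brighter group above background on all 3 arrays; on the left they all lie to the right of 0, and on the right IME1, RIM4, SPO20, SPO21 and SPS100 lie to the right of 0 and 8 probe sets to the left. Open points are probe sets whose brighter group was not above background on all 3 arrays. Both groups lay at background for 17 probe sets on the left and 16 on the right, and their plotted sizes are not measured fold changes. Where only the dimmer group lay at background, the fitted change is plotted and not the lower bound. The 2 panels share the dried BY4743 arrays.

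Commercial yeast against control BY4743 shares its arrays with the other comparisons and is given for its own levels. By the same rule, 16 member probe sets of 15 genes were higher (38.1%, against 31.9%) and 1, RED1, was lower (2.38%, against 33%). Only 8 of the 42 were above background on all control arrays, so no more than these could have been called lower. By the adjusted p alone, 22 were higher (52.4%, against 35.5%) and 5 were lower (11.9%, against 37%). The largest changes were those of SPS100 at 5.42 ± 0.21, RIM4 at 4.91 ± 0.25 and IME1 at 4.26 ± 0.13 (limma, adjusted p = 2.47e-07, 9.76e-07 and 9.66e-08). SPO20 was at least 4.10-fold higher, SPO22, a crossover protein also known as Zip4, at least 1.42-fold higher, and SPS1 at least 1.39-fold higher (limma, adjusted p = 2.85e-07, 0.00076 and 2.45e-05). RED1 was lower by a change of -0.999 ± 0.17 (limma, adjusted p = 0.00107).

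DMC1 was higher by 1.52 on its first probe set and 2.56 on its second (limma, adjusted p = 7.94e-05 and 1.9e-05). SPO21 was higher by 1.45 and REC104, with 49.2, 51.1 and 69.1 on the commercial arrays, by 1.21 (limma, adjusted p = 0.000766 and 0.00309). REC104 had 16.9, 32.6 and 25.3 in control cells, with 1 of 3 arrays above background. Its call was lost with a floor at background and under scaling by the spike-in controls. UME6 was higher by 1.51, SPO1 by 1.35, MUM2 by 1.17 and IME2 by 0.58 (limma, adjusted p = 4.55e-05, 6.17e-06, 0.000142 and 0.00631). MSH4 and MSH5 were both higher by 0.87 (limma, adjusted p = 7.14e-05 and 0.00319). Under scaling by the spike-in controls, which moved the median of all tested probe sets in this comparison to -1.43, these last 6 turned to -0.087, -0.040, -0.39, -0.84, -0.27 and -0.30. Of the 16 higher calls, 5 still passed there. NDT80 had 46.4, 58.4 and 61.2, above background on all 3 commercial arrays, with a change of 0.38 that did not pass (limma, adjusted p = 0.127). That change passed without control replicate 2, at 0.58, on the deposited values, at 0.85, and after median centring, at 0.69. Against dried BY4743 its change of 0.16 did not pass (limma, adjusted p = 0.516), but it passed on the deposited values, at 0.56, and after median centring, at 0.59.

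MER1, whose product activates splicing of meiotic transcripts, was at background on all 9 arrays, while REC107, a gene whose transcript needs Mer1 for splicing, was measured in all groups. REC107 had 210, 289 and 288 in control cells, 745, 872 and 670 in dried cells and 499, 308 and 352 in commercial yeast. It rose by 1.55 ± 0.21 in dried cells (limma, adjusted p = 0.000281). REC107 was named after its values were seen. Whether this signal is of spliced or unspliced RNA cannot be told from these probe sets.

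Beyond the 40 members, 92 other genes of the programme were listed and 89 had a probe set. Where such a gene had several, only the one with the highest mean signal was used, as for the haploid and marker genes above. All tested probe sets were not chosen in this way, so the shares compared below are not fully alike. In dried against control cells 33 were higher and 17 lower with the brighter group above background (37.1% and 19.1%, against 32.4% and 29.3% of all tested probe sets). In commercial yeast against dried BY4743 the numbers were 17 and 25 (19.1% and 28.1%, against 28.9% and 28.8%), and against control 32 and 17 (36.0% and 19.1%, against 31.9% and 33%). The shares that were higher were near or under those of all tested probe sets, and so were the shares that were lower. The median changes of the 89 were 0.45, -0.09 and 0.26. The changes of these other genes were not checked under the alternative settings used for the members. Spike-in scaling moved the median of all tested probe sets to -1.10 in commercial yeast against dried BY4743 and to -1.43 against control. How far the changes of these genes in commercial yeast depend on the scaling was not tested.

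Of 25 further regulators on this list, which do not all act upstream of IME1, 12 were higher and 6 lower in dried cells with the brighter group above background. Those shares were 48% and 24%, against 32.4% and 29.3% of all tested probe sets. The stress regulator MSN4 had 1047, 980 and 951 in control cells and 129, 135 and 208 in dried cells. It fell by 2.69 ± 0.19 (limma, adjusted p = 5.54e-06). MSN2 went the other way, from 584, 629 and 644 to 1326, 1476 and 1589, a rise of 1.24 ± 0.10 (limma, adjusted p = 8.93e-06). TUP1, a general corepressor, had 1634, 1203 and 1414 in control, 432, 333 and 348 in dried and 1149, 1099 and 1074 in commercial yeast. TUP1 fell by 1.93 ± 0.14 on drying and was higher by 1.59 in commercial yeast than in dried BY4743 (limma, adjusted p = 6.14e-06 and 3.03e-05). SWI4, a cell cycle transcription factor, had 164, 142 and 153 in dried BY4743 and was at background in commercial yeast, at least 4.11-fold lower (limma, adjusted p = 4.72e-06). RME1, a repressor of IME1 that haploid cells use to block meiosis, had 259 to 317 in control, 260 to 279 in dried and 288 to 380 in commercial yeast, and passed in no comparison. MSN2, RME1 and IME4 were named after their values were seen. IME4, the catalytic partner of Mum2 in messenger RNA methylation, had 99.2, 104 and 117 in control, 509, 483 and 445 in dried and 219, 273 and 256 in commercial yeast, and it rose by 2.16 ± 0.11 on drying (limma, adjusted p = 9.46e-07).

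Among recombination and division genes, CSM4, which moves meiotic telomeres, was at background in control cells, with 1.00, 1.00 and 1.87. It had 157, 166 and 163 in dried and 352, 316 and 414 in commercial yeast. CSM4 was thus at least 3.95-fold higher in dried and at least 8.75-fold higher in commercial yeast than in control cells (limma, adjusted p = 1.17e-07 and 7.28e-08). RAD54, which acts in recombinational repair in mitotic cells as well, had 108, 103 and 145 in control, 603, 566 and 564 in dried and 114, 130 and 108 in commercial yeast. Its change was 2.30 ± 0.14 on drying and -2.30 ± 0.14 in commercial yeast against dried BY4743 (limma, adjusted p = 2.41e-06 and 4.61e-06). CLB1, a cyclin of the mitotic and meiotic divisions, fell by 2.42 ± 0.32 on drying and was at least 5.50-fold lower in commercial yeast than in control cells (limma, adjusted p = 0.000223 and 5.31e-06). SPO12, which also acts at the exit from mitosis, had 146, 128 and 173 in control, 124, 171 and 172 in dried and 25.2, 30.7 and 41.8 in commercial yeast, and it fell by 2.27 ± 0.22 from dried to commercial yeast (limma, adjusted p = 4.79e-05).

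Among genes of spore formation, GIP1, the meiotic partner of the phosphatase Glc7, had 2.01, 2.45 and 1.87 in control cells and 403, 411 and 403 in dried cells. It was at least 9.89-fold higher in dried cells (limma, adjusted p = 5.75e-08). Commercial yeast had 76.0, 70.1 and 127, a fall of 2.21 ± 0.22 from dried BY4743 (limma, adjusted p = 5.72e-05). SPO75, needed for spore formation, had 96.7, 80.0 and 80.2 in commercial yeast and was at least 2.08-fold higher there than in control cells (limma, adjusted p = 3.22e-07). SPS19 had 306, 362 and 367 in control, 4228, 4983 and 4521 in dried and 4057, 3828 and 2344 in commercial yeast. SPS19 encodes a peroxisomal reductase of unsaturated fatty acid oxidation and is also expressed outside sporulation, and it rose by 3.73 ± 0.21 on drying (limma, adjusted p = 1.33e-06). MIP6 and SPS18, 2 further genes on the list, exceeded their dried BY4743 levels at least 2.78-fold and 1.11-fold in commercial yeast (limma, adjusted p = 3e-05 and 0.000183).

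Spore wall genes took different directions. SHC1, the sporulation activator of chitin synthase III, had 49.7, 42.1 and 54.7 in control, 1536, 1485 and 1588 in dried and 1319, 1354 and 1227 in commercial yeast. All 3 control values were close to background, and SHC1 rose by 4.98 ± 0.11 on drying (limma, adjusted p = 2.29e-08). SGA1, the glucoamylase that breaks down glycogen in sporulating cells, had 470, 397 and 456 in dried BY4743 and 2027, 2434 and 2360 in commercial yeast, a rise of 2.37 ± 0.12 (limma, adjusted p = 2.14e-06).

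OSW2, an outer spore wall gene, and GAS2, a glucan transferase of the spore wall, were measured in control cells and were at background in dried ones. OSW2 had 101, 91.9 and 117 in control and 127, 123 and 119 in commercial yeast, and was at least 2.03-fold lower in dried cells than in control cells (limma, adjusted p = 1.23e-05). It was at least 2.43-fold higher in commercial yeast than in dried BY4743 (limma, adjusted p = 7.86e-06). GAS2 had 91.0, 111.7 and 99.0 in control and was at least 2.70-fold lower in commercial yeast (limma, adjusted p = 8.41e-05). DTR1, the dityrosine transporter of the prospore membrane, was at background on all BY4743 arrays and had 64.0, 45.4 and 60.4 in commercial yeast, which is at least 1.10-fold over the dried BY4743 level (limma, adjusted p = 3.44e-05).

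**Figure D5:**
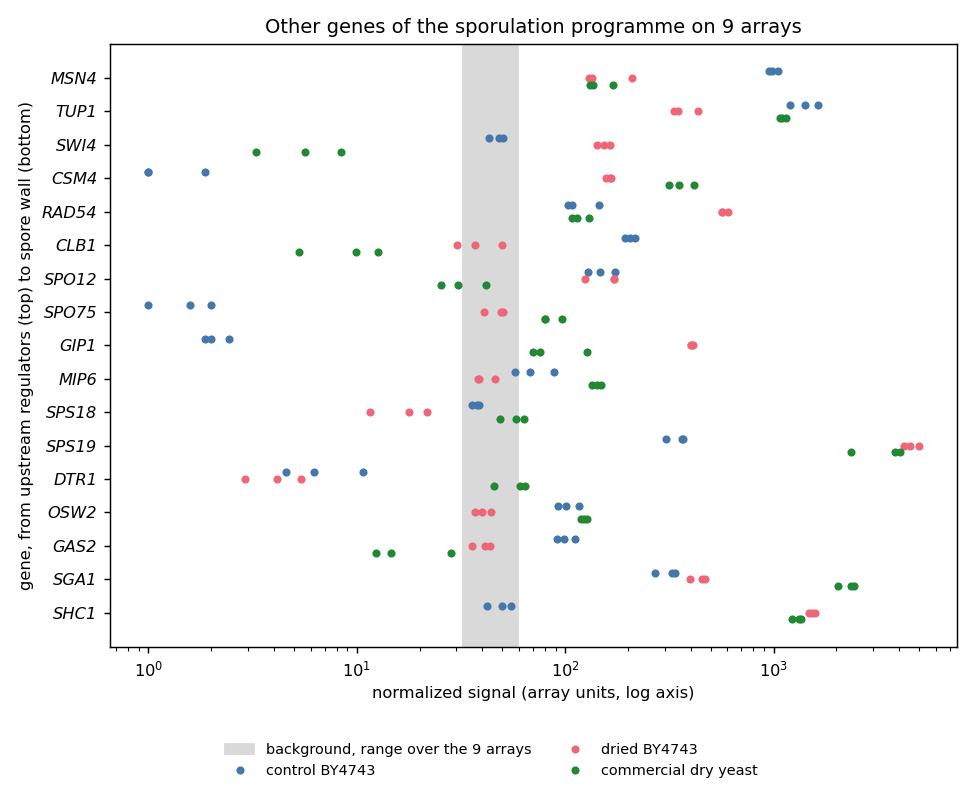
Normalized signal (horizontal axis, array units, log scale) of 17 further genes of the sporulation programme on each of the 9 arrays, ordered from upstream regulators at the top to spore wall genes at the bottom, with the range of array backgrounds in grey. SHC1, SPS19, CSM4 and GIP1 lie to the right of their control values in both dry yeasts, MSN4 lies to the left in both, and OSW2 and TUP1 are lower in dried BY4743 than in the other groups.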

How the data were processed

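Each array's file holds 1 intensity per probe set, on a linear scale, as deposited. Per the labels' protocols, images were read with the manufacturer's software and probe set signals were processed by a signed rank test and a linear mixed model; no software version is stated. Means after trimming 2% at each end were 500.2 to 500.3 on every array, so the deposited intensity values had been scaled to a common target. The 9 arrays limit the precision, and no batch is recorded. The sample titles begin with E3 for control and dried arrays and with ECY for commercial arrays. Any difference that goes with these codes cannot be told apart from that between the yeasts.

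Values under 1 were raised to 1, log2 was taken, and because the array medians spanned 0.28 quantile normalization followed (limma 3.58.1, R 4.3.3). One mean per group was fitted with lmFit to 9275 probe sets, without the 60 control probe sets, and contrasts were tested with eBayes, two-sided, on 6 residual plus 1.64 prior degrees of freedom. The procedure was run on simulated data in which few probe sets changed. That run cannot show how the normalization behaves under changes as broad as those called here. Genes were named through the platform annotation, where 6504 probe sets name exactly 1 gene, 328 several and 2503 none; 1 member probe set, of MEI4, may share probes with other genes.

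The members, their stages and the list of other sporulation genes were chosen with earlier results of these data known. All members may be named. Values on every array were given for all 5 regulators, NDT80, SPO11, DMC1, SPS100 and the members of each stage with the largest changes above background, and of the other genes up to 4 per comparison and direction; a few more members were given for completeness. Alternatives were the deposited values, median centring, an offset of 50, a floor at background, removal of the dimmest 25%, removal of probe sets with shared probes, only 2 groups in the fit, a replicate block, spike-in scaling and leaving out each array.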

Additional observations from a re-analysis of the deposited data

How the results depend on the processing

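With each array left out in turn, the members higher and lower numbered 25 to 27 and 0 to 3 in dried against control cells, 5 to 8 and 15 to 17 in commercial against dried yeast, and 20 to 23 and 4 to 5 in commercial against control; all tested probe sets past the threshold numbered 6013 to 6434, 5730 to 6154 and 6384 to 6640. Members lower in commercial against dried yeast numbered 9 with the deposited values, 8 with median centring, 27 with a floor at background and 6 without the dimmest 25%, against 16. The floor lifts dim values to each array's background, which after normalization was higher on dried arrays, so it makes differences by construction. Members higher there numbered 11 with median centring, 4 with the floor and 1 with spike-in scaling, against 7. Against control, members lower in commercial yeast numbered 1 with the deposited values, 2 with median centring, 3 with the offset, 1 with the floor, 1 without the dimmest 25% and 10 with spike-in scaling, against 5, and members higher numbered 13 without the dimmest 25% and 7 with spike-in scaling, against 22. In dried against control cells, members higher numbered 14 without the dimmest 25%, and members lower 0 there and with the floor. The members above background in control numbered 3 with the highest control as background, which was chosen after seeing the data.

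Spike-in scaling moved the median of all tested probe sets to -0.29, -1.10 and -1.43 in the 3 comparisons, and the deposited values moved it to 0.12, 0.13 and 0.22. The median change of the members turned to 0.14 with the deposited values and 0.16 with median centring in commercial against dried yeast, and to -0.084 with the floor and -0.29 with spike-in scaling against control. SPO11 turned to -0.14 with the floor, in commercial yeast against control, with both groups at background. With spike-in scaling SPO20 turned to -0.89 and SPS100 to -0.28 in commercial against dried yeast, and against control IME2 turned to -0.84, UME6 to -0.087, MUM2 to -0.39, MSH4 to -0.27, MSH5 to -0.30 and SPO1 to -0.040. The cause of these shifts was not tested. With spike-in scaling 13 of the 16 member probe sets that rose above background on drying still passed.

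Same-numbered arrays did not deviate together, with correlations from -0.040 to 0.043, so the numbers were not taken as pairs. With the replicate block, members higher numbered 26, 7 and 21 and members lower 3, 16 and 6 in the 3 comparisons. In commercial against dried yeast the block lost SPO20 (limma, adjusted p = 0.0582) and gained SPS1 (0.0342).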
